A study of Mus musculus with 16 samples.

Results

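Axon guidance molecules are cell surface and secreted proteins that steer growing axons and moving cells by repulsion, attraction and adhesion. Eph receptors are the largest family of receptor tyrosine kinases and bind ephrins on neighbouring cells, where EphA receptors mostly bind A-type ephrins, which are held in the membrane by a lipid anchor, and EphB receptors mostly bind the transmembrane B-type ephrins. Semaphorins signal through plexins, the secreted class 3 semaphorins mostly together with a neuropilin, Slits are secreted ligands of Robo receptors, and netrins bind Dcc, neogenin and the Unc5 receptors. Outside the nervous system the same families act in cell sorting at tissue boundaries, in vessel growth and in the movement of cells through gastrulation, the step at which endoderm and mesoderm form.

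The genes described here were taken by symbol from these families, namely Epha and Ephb receptors, Efna and Efnb ephrins, Sema and Plxn genes, Slit1 to Slit3, Robo1 to Robo4, Unc5a to Unc5d, Ntn1 and Ntn4. Of 64 genes of the RefSeq table with such symbols, 63 had a probe set named for that gene alone, and Ephb2 was not analysed here. These 63 guidance genes stood among 18716 genes that could be named on the 32000 probe sets of highest mean, and all 63 passed that filter. The rule itself used symbols alone, but the guidance genes were chosen with earlier results of these data known. Measured levels entered through the filter. They also entered where a gene had several probe sets named for it alone, of which the one of highest mean was read. The shares of guidance genes set beside those of all genes are therefore not from a set chosen without sight of the data. No gate used a guidance gene.

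RNA came from 1 mouse embryonic stem cell (mESC) reporter line, T GFP/+; Foxa2 tagRFP/+, labelled E14.1 on a 129/Ola background (the methods name G4), in which GFP interrupts 1 T allele and tagRFP is fused to 1 Foxa2 allele. Every group carried both alleles. Undifferentiated mESCs (ES) were grown on fibroblast feeders with leukemia inhibitory factor and were not sorted. Foxa2+ T- cells were obtained on Wnt3a-producing feeders in an endoderm medium containing activin A at 12 ng/ml, and were gated at days 2 and 4 into CD24 low cells (F+CD24low, DEP) and CD24 high cells (F+CD24high, definitive endoderm or DE). Foxa2- T+ cells came from that medium supplemented with Bmp4 at 7.5 ng/ml and activin A at 3 ng/ml (whether the 12 ng/ml was kept is not given in the sources used here), and were gated into CD24 low cells at days 2 and 4 (T+CD24low, MP) and CD24 negative cells at day 4 (T+CD24neg, MES). Each of the 8 groups had 2 arrays, labelled biological replicates, 16 arrays in all. Lineage and medium cannot be told apart, and DE and MES also differ in their CD24 gate.

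Levels are log2 values per probe set and are compared between populations within a gene, not between genes. A gene was called where the absolute log2 fold change was above 1 and the limma p-value, adjusted over 32000 probe sets by the Benjamini-Hochberg method, was below 0.05. Array medians lay between 7.42 and 7.49, and replicate arrays correlated at 0.989 to 0.995 over all probe sets. At day 4 the endoderm markers were higher in DE than in MES for 12 of 13 genes and the mesoderm markers lower for 13 of 13, and Foxa2, a gene of the sort, read 10.41 and 10.33 in DE and 7.86 and 7.78 in MES. In bulk RNA, fewer cells that express a gene and less of its RNA per cell cannot be told apart. The mean of 19 fibroblast markers was 9.62 to 10.02 on the ES arrays and 7.53 to 8.11 on all others. In the DE arrays of day 2, replicate 2 stood apart, with a fibroblast mean of 8.08 against 7.58 in replicate 1. Of that list, Col1a1 read 10.40 against 8.14, but Col3a1 7.79 against 7.68. Replicate 2 was also above replicate 1 in the mean of the mesoderm markers (8.05 against 7.61) and of visceral endoderm markers (7.80 against 7.23). The source of these differences was not tested. For the guidance genes, the values of DE against DEP and of DE between the days are also given without replicate 2.

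The range of a gene's 8 group means had a median of 1.11 on the log2 scale over the guidance genes and of 0.48 over all genes. A range of at least 2 was seen in 21 guidance genes, 33.3% of them, against 6.17% of all genes, and a range under 0.5 in 15. In the 10 comparisons other than that of late with early cells, 33 of the 63 were called at least once, beside 14.3% of all genes, and 8 at least 4 times, beside 2.14% of all genes, namely Sema6d, Plxnd1, Robo1, Unc5c, Efna1, Efna3, Epha2 and Sema3e. The called genes were 4 of 9 EphA and 1 of 4 EphB receptors, 3 of 5 A-type and 1 of 3 B-type ephrins, 4 of 9 plexins, 4 of 7 class 3 and 8 of 13 other semaphorins, 3 of 3 Slits, 2 of 4 Robos, 2 of 4 Unc5 receptors and 1 of 2 netrins.

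**Figure D1:**
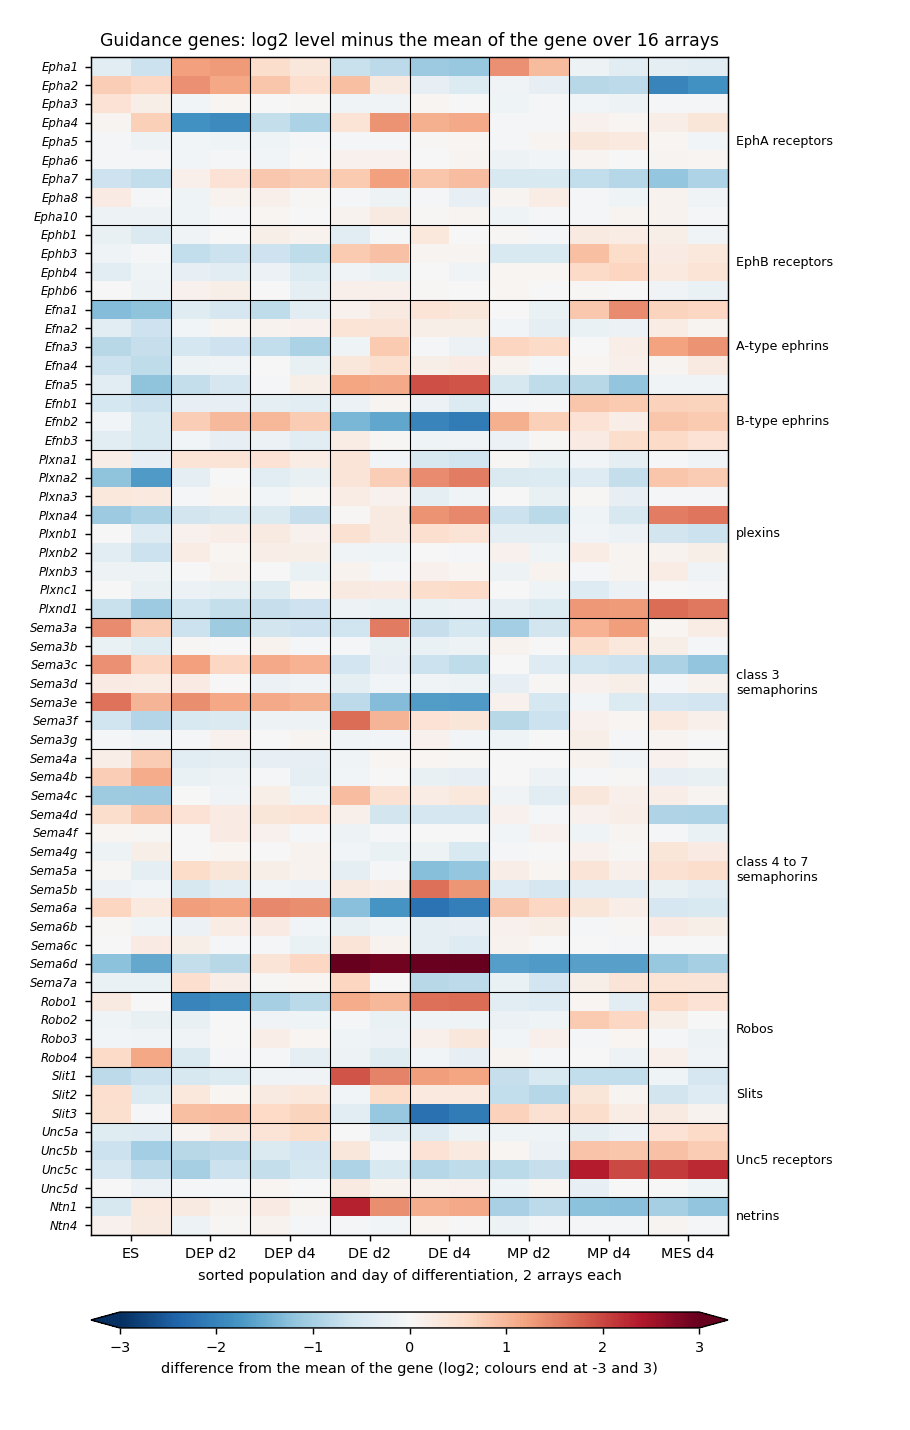
Each row is 1 of the 63 guidance genes, grouped by family, and each column is 1 of the 16 arrays, ordered as ES, DEP, DE, MP and MES with the day as d2 or d4. Colour shows the log2 level minus the gene's mean over all arrays, red above and blue below. Sema6d is darkest on the 4 DE arrays, and Unc5c on the day 4 arrays of MP and MES.

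Between the progenitor populations, DEP and MP, taken as the mean of both days, 6 guidance genes were higher in DEP and 7 lower, where 0.999% of all genes were higher and 0.983% lower. Between DE and MES at day 4, 9 were higher in DE and 9 lower, against 4.26% and 3.61% of all genes. The share of guidance genes called was 20.6% in the first and 28.6% in the second comparison. The called changes thus ran in both directions. The median log2 fold change over the guidance genes was 0.010 for DEP against MP and -0.037 for DE against MES, beside 0.0047 and 0.016 over all genes. The median size without the sign was 0.27 against 0.091 over all genes, and 0.42 against 0.18.

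Along the endoderm series, 6 guidance genes were higher and 5 lower in DEP than in ES, against 1.84% and 3.3% of all genes. From DEP to DE, 11 were higher and 6 lower, against 2.2% and 2.47%. Along the mesoderm series, MP exceeded ES in 6 guidance genes and lay below it in 3, against 1.69% and 3.46%, and MES of day 4 exceeded MP of that day in 3 and lay below it in 2, against 0.369% and 0.807%. From day 2 to day 4, DE had 2 guidance genes called higher and 3 lower (1.23% and 0.641% of all genes). DEP had 2 called higher and 0 called lower (0.369% and 0.0748%), and MP 6 higher and 1 lower (1.22% and 0.513%). Without the threshold on the fold change, 1 guidance gene was lower in DEP of day 4 by the adjusted p. At an unadjusted limma p under 0.05 there were 5 such genes. The shares of all genes at these 2 looser rules are not given here. Against ES, single days lost some of these calls. With the day 2 arrays alone, DEP was above ES by 0.97 in Epha7 and 0.62 in Sema6d, and MP differed from ES by -0.86 in Epha2 and 0.86 in Sema4c, none of them called. With the day 4 arrays alone, DEP was above ES by 0.91 in Epha1 and MP by 0.86 in Efna3, neither called. The comparisons share arrays, so their lists are not independent of each other.

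Sema6d and Unc5c had the largest differences of the guidance genes between DE and MES, in opposite directions, and Efnb2 the second largest of those lower in DE. The bases before their annotated starts are shown because of the size of these differences. Each sequence is the 250 bases upstream of a RefSeq start in GRCm38.p6, read 5′ to 3′ on the strand of the gene, with capitals where the letters of a searched motif stand. The letters searched for forkhead factors were TGTTTAC. Those for T-box factors were AGGTGT. Those for GATA factors were AGATAA, each on both strands, and no motif contains another. Sema6d has a pair of annotated starts, and which of them the array reads is not known.
Sema6d, first start, + strand, chr2:124089719-124089968: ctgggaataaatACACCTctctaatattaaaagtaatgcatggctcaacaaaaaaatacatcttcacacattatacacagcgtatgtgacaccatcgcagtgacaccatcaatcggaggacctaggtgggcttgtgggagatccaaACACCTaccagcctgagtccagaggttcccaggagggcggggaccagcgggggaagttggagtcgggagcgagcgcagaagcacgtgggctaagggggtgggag
Sema6d, second start, + strand, chr2:124653331-124653580: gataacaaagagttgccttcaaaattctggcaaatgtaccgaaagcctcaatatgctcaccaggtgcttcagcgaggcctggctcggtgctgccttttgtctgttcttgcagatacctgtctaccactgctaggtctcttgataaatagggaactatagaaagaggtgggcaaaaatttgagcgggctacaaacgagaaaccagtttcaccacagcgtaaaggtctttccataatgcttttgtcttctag
Unc5c, + strand, chr3:141465314-141465563: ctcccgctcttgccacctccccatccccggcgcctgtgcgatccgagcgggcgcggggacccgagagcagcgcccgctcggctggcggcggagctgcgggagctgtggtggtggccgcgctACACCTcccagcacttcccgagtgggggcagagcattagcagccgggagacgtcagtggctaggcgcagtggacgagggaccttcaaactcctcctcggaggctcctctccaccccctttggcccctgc
Efnb2, - strand, chr8:8661243-8661492: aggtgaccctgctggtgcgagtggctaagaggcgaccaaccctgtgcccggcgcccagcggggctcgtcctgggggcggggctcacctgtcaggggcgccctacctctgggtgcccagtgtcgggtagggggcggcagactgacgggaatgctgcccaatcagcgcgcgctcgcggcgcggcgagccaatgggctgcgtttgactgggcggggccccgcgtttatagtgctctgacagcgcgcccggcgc

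The first Sema6d window held the T-box letters 238 and 104 bases before the start, and the Unc5c window 129 bases before it, each on the minus strand. The second Sema6d window and the Efnb2 window held none of these motifs. Windows were found for 54 of the 63 guidance genes, 70 windows in all. The forkhead letters stood in 0 of these 70 windows and in 3.17% of all 32851 windows of the table, the T-box letters in 7 (10%, against 11.8%) and the GATA letters in 3 (4.29%, against 9.99%). Of the 9 windows of guidance genes higher in DE than in MES, 1 held the T-box letters, and of the 9 windows of those lower in DE, 1 did too. A match of letters is not a binding site.

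Among the EphA receptors, Epha2 and Epha7 were higher in the endoderm populations, both early and late. Epha2, a receptor whose main ligand is ephrin-A1, read 11.74 and 11.53 on the DEP arrays of day 2 and 11.19 and 10.88 on those of day 4, and 10.26 and 10.13 and 9.55 and 9.59 on the MP arrays of the same days. The lowest DEP array lay above the highest MP array, and the log2 fold change was 1.46 ± 0.13 (SE, adjusted p = 1.58e-05). At day 4 Epha2 read 10.12 and 9.96 in DE and 8.38 and 8.56 in MES, a log2 fold change of 1.57 ± 0.18 (SE, adjusted p = 6.17e-05). Along the mesoderm series Epha2 was lower in MP than in ES, at -1.17 ± 0.16 (SE, adjusted p = 0.000228), and lower in MES than in MP at day 4, at -1.10 ± 0.18 (SE, adjusted p = 0.005). The last of these was not called without T+CD24low D4 replicate 2 (adjusted p = 0.0508) or T+CD24neg D4 replicate 1 (adjusted p = 0.0573).

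Epha7, an A-class receptor known for repelling and adhesive isoforms, read 9.78 and 10.07 in DEP of day 2, 10.45 and 10.41 in DEP of day 4, 9.18 and 9.18 in MP of day 2 and 8.89 and 8.79 in MP of day 4. Every DEP array was above every MP array, with a log2 fold change of 1.16 ± 0.1 (SE, adjusted p = 1.58e-05). DE arrays of day 4 read 10.48 and 10.57 and MES arrays 8.47 and 8.71, a log2 fold change of 1.94 ± 0.14 (SE, adjusted p = 1.8e-06). Against ES, which read 9.02 and 8.90, DEP was higher by 1.22 ± 0.12 (SE, adjusted p = 3.31e-05) on the log2 scale.

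Epha4, which binds ephrins of both classes, went the other way among the progenitors. It read 7.39 and 7.30 in DEP of day 2 and 8.49 and 8.27 in DEP of day 4, against 9.17 and 9.17 and 9.34 and 9.28 in MP, a log2 fold change of -1.38 ± 0.18 (SE, adjusted p = 0.000314). DEP was also below ES, by -1.74 ± 0.22 (SE, adjusted p = 0.00015), and from DEP to DE the level rose by 2.34 ± 0.18 (SE, adjusted p = 2.02e-06). The DE arrays read 9.64 and 10.55 at day 2 and 10.28 and 10.35 at day 4, all above every DEP array, and the rise was 2.12 without DE replicate 2 of day 2. Epha1 was highest in DEP of day 2, at 10.71 and 10.75, and in MP of day 2, at 10.85 and 10.42. It was higher in DEP than in ES (1.32 ± 0.12, adjusted p = 1.75e-05), lower in DE than in DEP (-1.76 ± 0.1, adjusted p = 2.42e-07) and lower in MP at day 4 than at day 2 (-1.39 ± 0.14, adjusted p = 0.00016). The other 5 EphA receptors, Epha3, Epha5, Epha6, Epha8 and Epha10, had ranges of group means of 0.25 to 0.43 and no call.

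The A-type ephrins did not share a direction. Efna1 read 8.31 and 8.16 and 7.92 and 8.34 in DEP of days 2 and 4, and 8.67 and 8.49 and 9.48 and 10.10 in MP, and the log2 fold change of DEP against MP was -1.003 ± 0.13 (SE, adjusted p = 0.000318). Every DEP array was below every MP array, but the fold change sat at the threshold and lay between -0.85 and -0.97, not called, with any 1 of 4 arrays left out, namely T+CD24low D4 replicate 2, F+CD24low D2 replicate 2, T+CD24low D2 replicate 1 and F+CD24low D4 replicate 1. Efna1 was higher in MP than in ES by 1.76 ± 0.16 (SE, adjusted p = 1.13e-05), with ES at 7.38 and 7.48, and rose in MP from day 2 to day 4 by 1.21 ± 0.18 (SE, adjusted p = 0.00216), or 0.90, not called, without T+CD24low D4 replicate 2.

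Efna3, another A-type ephrin, read 8.80 and 8.71 and 8.58 and 8.39 in DEP and 9.98 and 9.90 and 9.31 and 9.53 in MP, a log2 fold change of -1.06 ± 0.16 (SE, adjusted p = 0.000897). It read 9.26 and 9.14 in DE and 10.54 and 10.67 in MES at day 4, a log2 fold change of -1.41 ± 0.22 (SE, adjusted p = 0.000713). Both mesoderm populations were thus above the endoderm population of the same stage.

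Efna3 was also higher in MP than in ES (1.12 ± 0.19, adjusted p = 0.00143) and in MES than in MP at day 4 (1.19 ± 0.22, adjusted p = 0.0118), though the latter was not called without any 1 of the 4 arrays of that comparison (adjusted p between 0.0504 and 0.0997), nor with MP as the mean of both days, at 0.92. Efna5 was the A-type ephrin that was higher in DE. It read 11.14 and 11.11 in DE and 9.11 and 9.11 in MES at day 4, a log2 fold change of 2.02 ± 0.23 (SE, adjusted p = 5.18e-05), and rose from DEP to DE by 1.82 ± 0.16 (SE, adjusted p = 6.95e-06). DE arrays of day 2 read 10.39 and 10.36, and DEP arrays 8.49 and 8.72 at day 2 and 9.15 and 9.38 at day 4, below every DE array.

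Efnb2, a transmembrane ephrin known for arterial vessels and boundaries between cell groups, was lower in DE than in any other population. At day 4 it read 7.81 and 7.70 in DE and 10.61 and 10.57 in MES, a log2 fold change of -2.84 ± 0.16 (SE, adjusted p = 1.96e-07). DEP read 10.53 and 10.77 at day 2 and 10.79 and 10.55 at day 4, and DE read 8.42 and 8.23 at day 2. The fall from DEP to DE was -2.62 ± 0.11 (SE, adjusted p = 2.97e-08), and -2.57 without DE replicate 2 of day 2. From ES, at 9.70 and 9.33, to DEP the level was higher by 1.14 ± 0.14 (SE, adjusted p = 0.000118), which was 0.96 and not called without mESC replicate 2. Efnb1 and Efnb3 were not called, with log2 fold changes of -0.98 and -0.61 for DE against MES. Of the B-class receptors, Ephb3 rose from DEP to DE by 1.15 ± 0.079 (SE, adjusted p = 8.98e-07) (0.78, not called, with the day 4 arrays alone) and in MP from day 2, at 8.67 and 8.69, to day 4, at 10.05 and 9.69, by 1.19 ± 0.11 (SE, adjusted p = 7.62e-05). Ephb1, Ephb4 and Ephb6 had ranges of group means of 0.31 to 0.91 and no call.

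**Figure D2:**
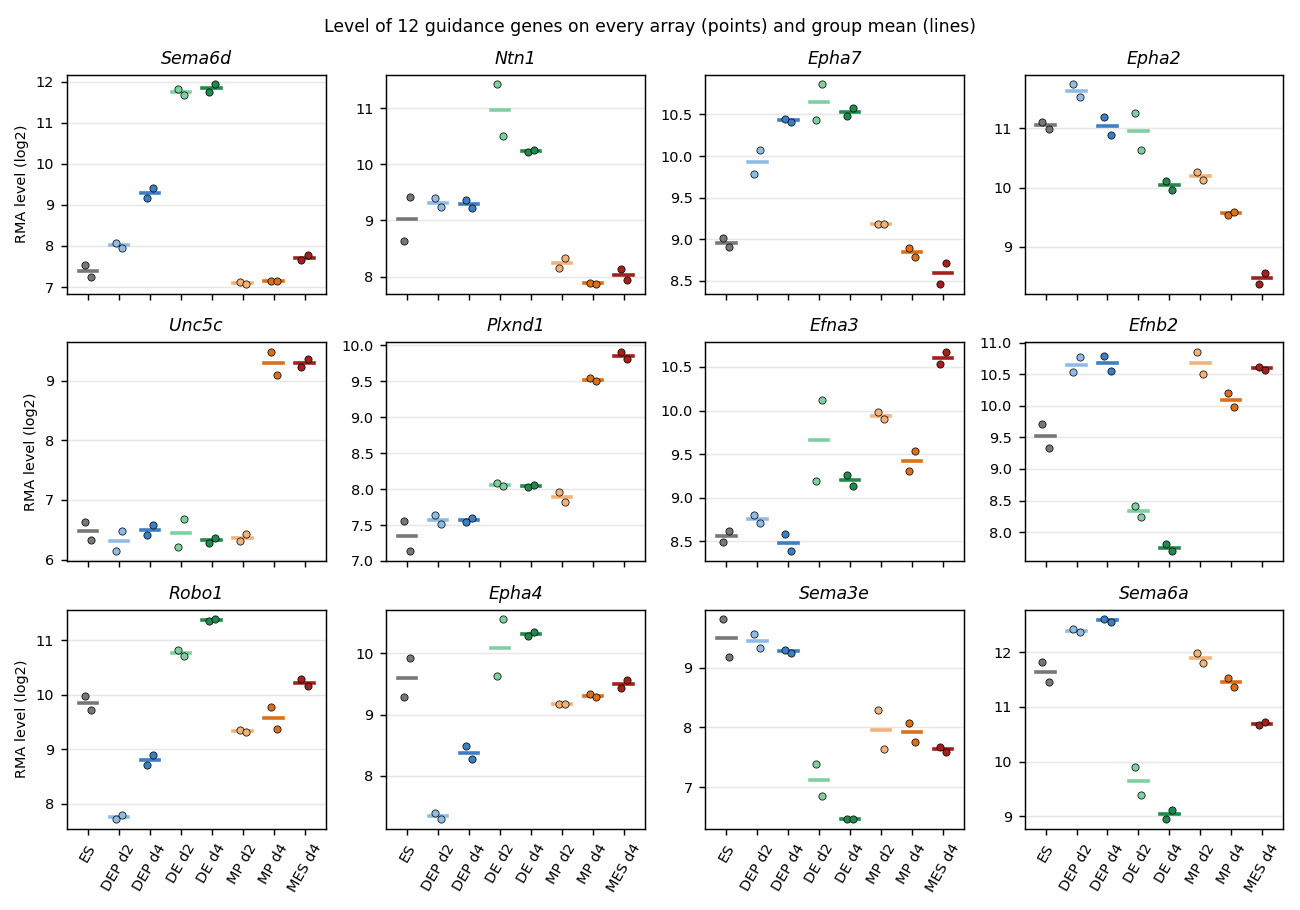
Each panel shows 1 guidance gene, with the log2 level on the vertical axis and the 8 populations on the horizontal axis. Points are the 2 arrays of a group and the line is their mean, and each panel has its own scale that does not start at 0. Sema6d of the 4 DE arrays lies between 11.67 and 11.93, above the other 12 arrays, and Efnb2 between 7.70 and 8.42, below them.

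Sema6d, a transmembrane semaphorin that signals through plexin-A1, was the guidance gene called most often, in 6 of 10 comparisons. At day 4 it read 11.74 and 11.93 in DE and 7.65 and 7.78 in MES, a log2 fold change of 4.12 ± 0.12 (SE, adjusted p = 2.41e-09). Among the progenitors it read 8.08 and 7.96 and 9.17 and 9.41 in DEP of days 2 and 4, and 7.13 and 7.08 and 7.16 and 7.16 in MP, a log2 fold change of 1.52 ± 0.087 (SE, adjusted p = 6.48e-07). From lowest to highest, the arrays of the endoderm series stood in the order ES, at 7.54 and 7.25, DEP of day 2, DEP of day 4 and DE, which read 11.82 and 11.67 at day 2. DEP was above ES by 1.26 ± 0.11 (SE, adjusted p = 7.39e-06), DE above DEP by 3.14 ± 0.087 (SE, adjusted p = 2.44e-09) and DEP of day 4 above DEP of day 2 by 1.27 ± 0.12 (SE, adjusted p = 0.00101). DE of day 2 and of day 4 overlapped. Its receptor gene Plxna1 was not called, with log2 fold changes of 0.51 for DEP against MP and -0.47 for DE against MES.

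Sema6a, the close relative that signals through plexin-A2 and plexin-A4, ran opposite to Sema6d from DEP to DE. From ES, at 11.81 and 11.46, to DEP, Sema6a was higher, as Sema6d was, but was not called. Sema6a read 12.43 and 12.36 in DEP of day 2 and 12.60 and 12.56 in DEP of day 4. DE read 9.90 and 9.39 at day 2 and 8.95 and 9.11 at day 4. Every DE array was below every DEP array, and the log2 fold change was -3.15 ± 0.11 (SE, adjusted p = 9.01e-09), or -3.02 without DE replicate 2 of day 2. MES read 10.66 and 10.72, so that DE was below MES as well, by -1.66 ± 0.16 (SE, adjusted p = 1.56e-05). Plxna2, a receptor gene of Sema6a, was higher in DEP than in ES (1.24 ± 0.15, adjusted p = 0.000129), in DE than in DEP (1.24 ± 0.12, adjusted p = 1.81e-05) and in MES than in MP at day 4 (1.35 ± 0.18, adjusted p = 0.0011). Without mESC replicate 2 the first of these was 0.997, under the threshold. Both rises from DEP to DE were not called with the day 2 arrays alone, at 0.72 for Plxna2 and 0.66 for Plxna4. Plxna4 rose from DEP to DE by 1.31 ± 0.096 (SE, adjusted p = 1.47e-06), in DE from day 2 to day 4 by 1.24 ± 0.14 (SE, adjusted p = 0.000343) and from MP to MES at day 4 by 1.87 ± 0.14 (SE, adjusted p = 2.66e-05). At day 4 Plxna4 read 9.30 and 9.41 in DE and 9.50 and 9.57 in MES, and 7.52 and 7.27 in DEP and 7.84 and 7.49 in MP. The late cells of both lineages were thus above the early cells in Plxna2 and Plxna4, while the log2 fold changes of DE against MES were 0.69 and -0.18 and were not called.

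Sema5a and Sema5b, transmembrane semaphorins with thrombospondin repeats, moved in opposite directions. Sema5b read 9.44 and 9.11 in DE and 7.56 and 7.47 in MES at day 4, a log2 fold change of 1.76 ± 0.11 (SE, adjusted p = 4.53e-07), and in DE it rose from day 2, at 8.06 and 7.997, by 1.25 ± 0.11 (SE, adjusted p = 8.71e-05). It was also higher in DE than in DEP, by 1.13 ± 0.078 (SE, adjusted p = 9.52e-07), or by 0.64, not called, with the day 2 arrays alone. Sema5a read 7.54 and 7.67 in DE and 9.28 and 9.35 in MES, a log2 fold change of -1.71 ± 0.13 (SE, adjusted p = 2.85e-06), and in DE it fell from 8.56 and 8.79 at day 2, a change of -1.07 ± 0.13 (SE, adjusted p = 0.000815) that was -0.96 and not called without DE replicate 2 of day 2. Sema7a, held in the membrane by a lipid anchor, read 7.22 and 7.27 in DE and 8.44 and 8.42 in MES, a log2 fold change of -1.19 ± 0.2 (SE, adjusted p = 0.00093), which was -0.63 and not called with DE as the mean of both days. Its fall in DE from day 2, at 8.69 and 8.02, was -1.11 ± 0.2 (SE, adjusted p = 0.00593), and was not called without DE replicate 1 of day 2 (-0.78) or of day 4 (adjusted p = 0.0503). Its receptor gene Plxnc1 was not called in any comparison.

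Of the class 4 semaphorins, Sema4c was higher than in ES in both DEP (1.07 ± 0.13, adjusted p = 0.000148) and MP (1.09 ± 0.13, adjusted p = 0.000115), with ES at 8.22 and 8.20. Without F+CD24low D4 replicate 1 the difference of DEP was 0.99, under the threshold. Sema4b was lower in DEP than in ES by -1.09 ± 0.11 (SE, adjusted p = 2.4e-05), and -0.90, not called, without mESC replicate 2. Sema4d was lower in MES than in MP at day 4 (-1.08 ± 0.18, adjusted p = 0.00614), but its other probe set differed by 0.0068 there and the median of both by -0.54, which was not called. Plxnb1, the receptor gene of Sema4d, read 10.41 and 10.32 in DE and 9.37 and 9.26 in MES, a log2 fold change of 1.05 ± 0.13 (SE, adjusted p = 9.07e-05). Without T+CD24neg D4 replicate 2 this was 0.997, under the threshold. Sema4a, Sema4f, Sema4g, Sema6b and Sema6c had ranges of group means of 0.23 to 0.78 and no call.

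The class 3 semaphorins Sema3c and Sema3e, both secreted, were higher in ES and DEP than in MP. Sema3e, which binds plexin-D1 without a neuropilin, read 9.57 and 9.33 and 9.30 and 9.24 in DEP of days 2 and 4, and 8.28 and 7.64 and 8.08 and 7.76 in MP, a log2 fold change of 1.42 ± 0.17 (SE, adjusted p = 0.000206). MP was below ES, at 9.80 and 9.18, by -1.55 ± 0.21 (SE, adjusted p = 0.000274). DE was lower still, at 7.39 and 6.86 at day 2 and 6.48 and 6.48 at day 4, which was -2.56 ± 0.17 (SE, adjusted p = 7.99e-07) against DEP. DE of day 4 was also below MES, at 7.67 and 7.59, by -1.16 ± 0.24 (SE, adjusted p = 0.00508), which was -0.83 and not called with DE as the mean of both days. The endoderm progenitors were thus above, and the definitive endoderm below, the mesoderm population of the same stage.

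Sema3c, which signals through neuropilins and plexins of the A and D classes, read 8.37 and 7.76 and 8.28 and 8.18 in DEP of days 2 and 4, and 7.13 and 6.75 and 6.54 and 6.51 in MP, a log2 fold change of 1.42 ± 0.18 (SE, adjusted p = 0.000233). MP was below ES by -1.42 ± 0.21 (SE, adjusted p = 0.000586), and DE below DEP by -1.56 ± 0.18 (SE, adjusted p = 4.9e-05). Sema3f read 10.92 and 10.27 in DE and 8.80 and 8.83 in DEP at day 2, and 9.69 and 9.62 in DE and 9.09 and 9.11 in DEP at day 4. DE was above DEP by 1.17 ± 0.12 (SE, adjusted p = 2.55e-05), but by 0.56, not called, with the day 4 arrays alone. Sema3a was lower in DEP than in ES (-1.79 ± 0.44, adjusted p = 0.0123) and rose in MP from 6.09 and 6.56 at day 2 to 8.16 and 8.37 at day 4 (1.94 ± 0.5, adjusted p = 0.0425). The first was not called without mESC replicate 1 (adjusted p = 0.117), and the second not without any 1 array other than those of ES and of DE at day 2 (adjusted p between 0.0575 and 0.225). The replicates of DE at day 2 read 6.52 and 8.68 for Sema3a, the widest gap between replicates among the guidance genes.

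Plxnd1, the receptor gene of Sema3e and known for vessel growth, was highest in the day 4 mesoderm. It read 7.64 and 7.51 and 7.55 and 7.60 in DEP of days 2 and 4, and 7.96 and 7.83 and 9.54 and 9.50 in MP, a log2 fold change of -1.13 ± 0.087 (SE, adjusted p = 6.07e-06). At day 4 it read 8.03 and 8.06 in DE and 9.91 and 9.80 in MES, a log2 fold change of -1.81 ± 0.12 (SE, adjusted p = 8.34e-07). MP was above ES by 1.36 ± 0.11 (SE, adjusted p = 3.86e-06) (0.55, not called, with the day 2 arrays of MP alone) and rose from day 2 to day 4 by 1.63 ± 0.12 (SE, adjusted p = 1.79e-05). The mean of 12 endothelial and blood progenitor markers was 7.61 on both MP arrays of day 4 and 7.78 and 7.79 on the MES arrays, against 6.89 to 7.40 on all others, and 5 of the 12 rose in MP from day 2 to day 4. Cdh5 read 8.68 and 9.09 and Etv2 9.88 and 10.04 in MP of day 4. The list was not uniform. In MES against MP at day 4, 2 of its genes were called higher and 1 lower, and in DE against MES 2 higher and 3 lower. Pecam1 read 8.33 and 8.81 in ES, 8.50 and 8.63 in MP of day 4 and 7.48 and 7.42 in MES. The part of such cells in the levels of Plxnd1, Unc5b and Unc5c was not tested.

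Robo1 was the Robo gene with the widest range, and its order among the populations differed between early and late cells. It read 7.73 and 7.79 and 8.71 and 8.90 in DEP of days 2 and 4, and 9.36 and 9.32 and 9.77 and 9.37 in MP, so that DEP was below MP by -1.17 ± 0.095 (SE, adjusted p = 8.67e-06). At day 4 it read 11.36 and 11.38 in DE and 10.28 and 10.15 in MES, so that DE was above MES by 1.15 ± 0.13 (SE, adjusted p = 6.61e-05), or by 0.85, not called, with DE as the mean of both days. DEP was below ES, at 9.98 and 9.72, by -1.56 ± 0.12 (SE, adjusted p = 2.59e-06), rose from day 2 to day 4 by 1.04 ± 0.13 (SE, adjusted p = 0.00461) (0.94, not called, without F+CD24low D4 replicate 2), and DE was above DEP by 2.79 ± 0.095 (SE, adjusted p = 6.21e-09). DE of day 2 read 10.82 and 10.72. Robo4, an endothelial Robo, was lower in DEP than in ES by -1.07 ± 0.16 (SE, adjusted p = 0.000564), and not called at -0.78 without mESC replicate 2 or at -0.98 without F+CD24low D2 replicate 1. Robo2 and Robo3 had ranges of group means of 0.88 and 0.40 and no call.

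Of the Slits, secreted ligands of Robo receptors, Slit1 and Slit3 had opposite patterns. Slit1 read 9.03 and 8.96 in DE and 7.67 and 7.27 in MES at day 4, a log2 fold change of 1.52 ± 0.15 (SE, adjusted p = 1.94e-05), and DE was above DEP by 1.72 ± 0.11 (SE, adjusted p = 4.33e-07). Slit3 read 7.89 and 8.04 in DE and 10.39 and 10.24 in MES, a log2 fold change of -2.35 ± 0.23 (SE, adjusted p = 1.68e-05). DEP read 11.02 and 11.05 and 10.72 and 10.80 at days 2 and 4, above DE of day 2, at 9.80 and 9.000, and the fall from DEP to DE was -2.22 ± 0.16 (SE, adjusted p = 1.58e-06). In DE, Slit3 fell again from day 2 to day 4, by -1.43 ± 0.23 (SE, adjusted p = 0.00371), or -1.83 without DE replicate 2 of day 2. Slit2 rose in MP from 8.15 and 8.04 at day 2 to 9.25 and 8.97 at day 4, by 1.02 ± 0.26 (SE, adjusted p = 0.0381), which was not called without any 1 array other than those of ES and of DE at day 2 (adjusted p between 0.0516 and 0.186).

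Ntn1, which encodes netrin-1, was higher in the endoderm at both stages. Of its receptor genes, Unc5b was lower in DEP than in MP and not called in DE against MES, and Unc5c was lower in DE than in MES and, at day 4, in DEP than in MP. Ntn1 read 9.40 and 9.24 and 9.37 and 9.22 in DEP of days 2 and 4, and 8.16 and 8.34 and 7.89 and 7.87 in MP, a log2 fold change of 1.24 ± 0.19 (SE, adjusted p = 0.00124). At day 4 it read 10.22 and 10.26 in DE and 8.13 and 7.94 in MES, a log2 fold change of 2.20 ± 0.27 (SE, adjusted p = 0.000108). DE was above DEP by 1.30 ± 0.19 (SE, adjusted p = 0.000426) (0.94, not called, with the day 4 arrays alone), with DE of day 2 at 11.43 and 10.51. Ntn4 was not called and had a range of group means of 0.30.

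Unc5c read 9.48 and 9.09 in MP of day 4 and 9.23 and 9.36 in MES, and between 6.14 and 6.68 on the other 12 arrays. The log2 fold change of DE against MES was -2.97 ± 0.18 (SE, adjusted p = 3.67e-07), and MP rose from 6.31 and 6.43 at day 2 by 2.92 ± 0.18 (SE, adjusted p = 4.7e-06). Averaged over the days, DEP was below MP by -1.43 ± 0.13 (SE, adjusted p = 1.92e-05) and MP above ES by 1.35 ± 0.16 (SE, adjusted p = 8.3e-05), but MP arrays of day 2 overlapped both DEP and ES, and MP against ES was -0.11 with the day 2 arrays of MP alone. Unc5b read 9.42 and 9.47 and 9.84 and 9.69 in DEP, and 10.31 and 10.09 and 11.12 and 11.10 in MP, a log2 fold change of -1.05 ± 0.1 (SE, adjusted p = 3.73e-05), which was -0.997 and not called without T+CD24low D2 replicate 1. MP was above ES, at 9.63 and 9.25, by 1.22 ± 0.13 (SE, adjusted p = 3.38e-05), or by 0.76, not called, with the day 2 arrays of MP alone. Unc5a and Unc5d had ranges of group means of 0.87 and 0.31 and no call in the 10 comparisons. Of the other netrin receptor genes, Dcc read 6.28 to 6.71 and Neo1 10.30 to 10.70 over all 16 arrays.

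**Figure D3:**
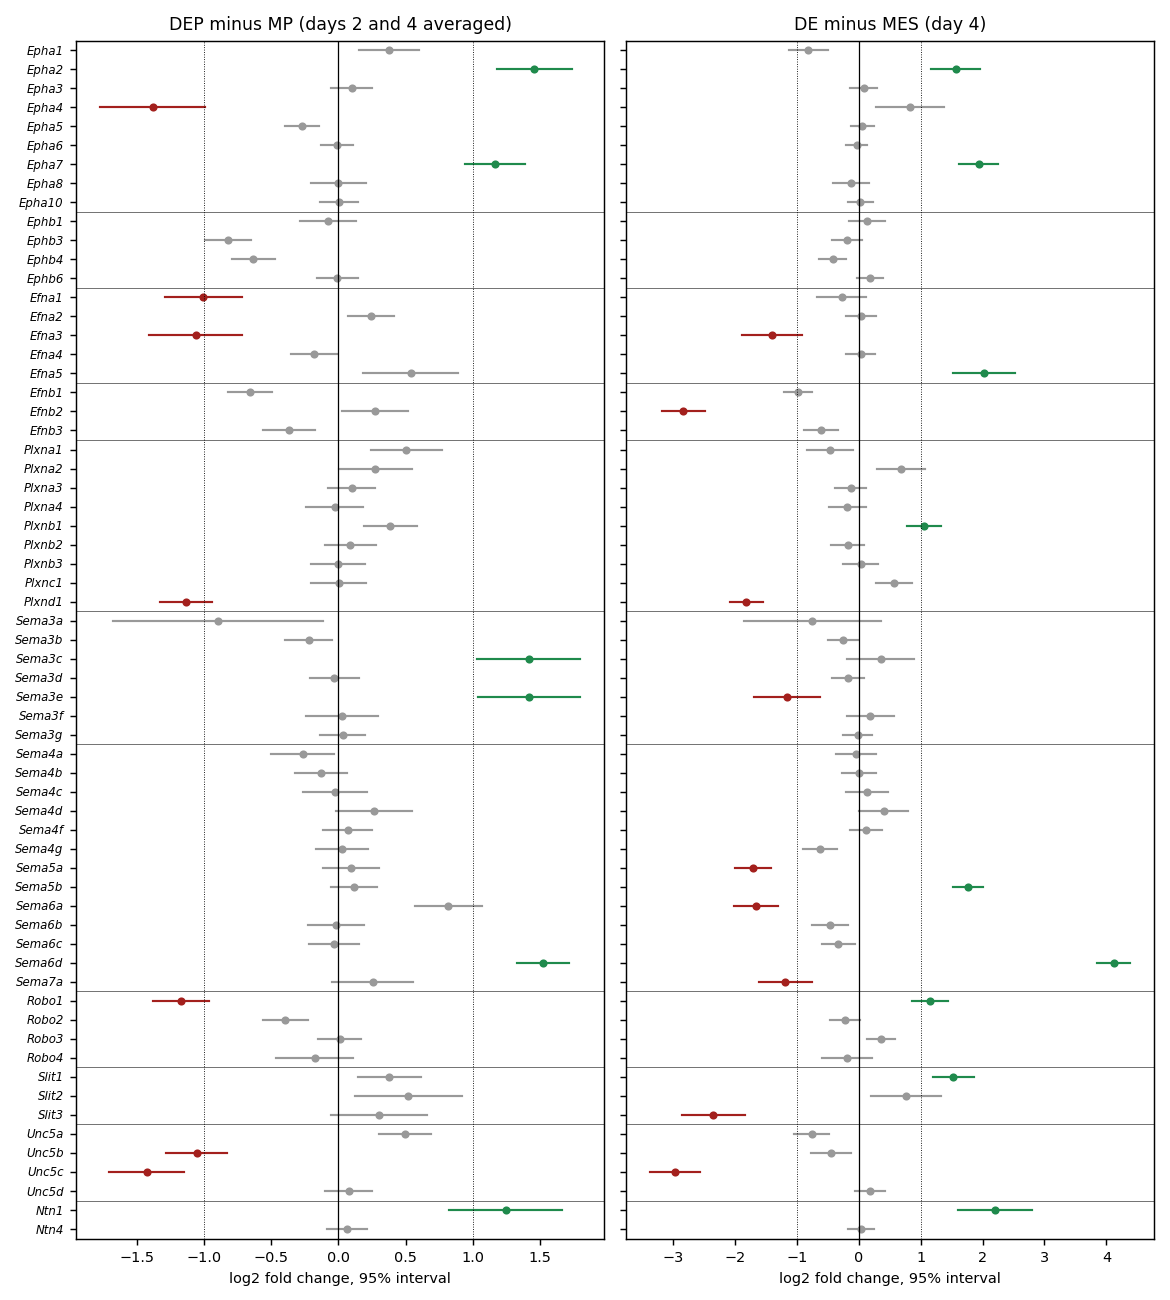
Points are the log2 fold changes of the 63 guidance genes in DEP against MP (left, mean of days 2 and 4) and DE against MES at day 4 (right), with 95% intervals from limma, and the axes of both panels differ in scale. Green marks genes called higher in the endoderm population, red those called lower and grey those not called, and dotted lines mark the threshold of 1 in either direction. The largest values are Sema6d at 4.12 and Unc5c at -2.97, both in DE against MES.

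For several genes the difference between DEP and MP changed with the day. As an interaction of lineage and day, 1 guidance gene changed upward and 4 downward, against 0.657% and 0.908% of all genes, with medians of -0.066 over the guidance genes and -0.0061 over all genes. Unc5c differed between DEP and MP by -0.06 at day 2 and -2.79 at day 4, a change of -2.73 ± 0.26 (SE, adjusted p = 0.00027). Plxnd1 differed by -0.32 at day 2 and -1.95 at day 4, a change of -1.63 ± 0.17 (SE, adjusted p = 0.000593). The DEP and MP arrays overlapped at day 2 for Unc5c but not for Plxnd1, and at day 4 for neither.

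Ephb3 changed from -0.23 to -1.42 (-1.19 ± 0.16, adjusted p = 0.0021) and Efna1 from -0.34 to -1.66 (-1.32 ± 0.26, adjusted p = 0.0214), the latter not called without either DEP array of day 2, either MP array of day 2 or DEP replicate 1 of day 4 (adjusted p between 0.054 and 0.100). Sema6d changed upward, from 0.91 at day 2 to 2.13 at day 4 (1.22 ± 0.17, adjusted p = 0.00332). For 4 of these genes the change lay in MP, where Unc5c, Plxnd1, Efna1 and Ephb3 rose from day 2 to day 4, while Sema6d rose in DEP. Of the other genes called in DEP against MP, Robo1, Epha4 and Efna3 were called with the day 2 arrays alone (-1.58, -1.83 and -1.19) but not with those of day 4 (-0.76, -0.93 and -0.93). Ntn1, Epha7 and Unc5b were called with the day 4 arrays alone (1.42, 1.59 and -1.35) but not with those of day 2 (1.07, 0.74 and -0.76). For these 6 genes the change between the days was not called. Epha2, Sema3c and Sema3e were called on both days, with differences of 1.44, 1.13 and 1.49 at day 2 and of 1.47, 1.70 and 1.35 at day 4.

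**Figure D4:**
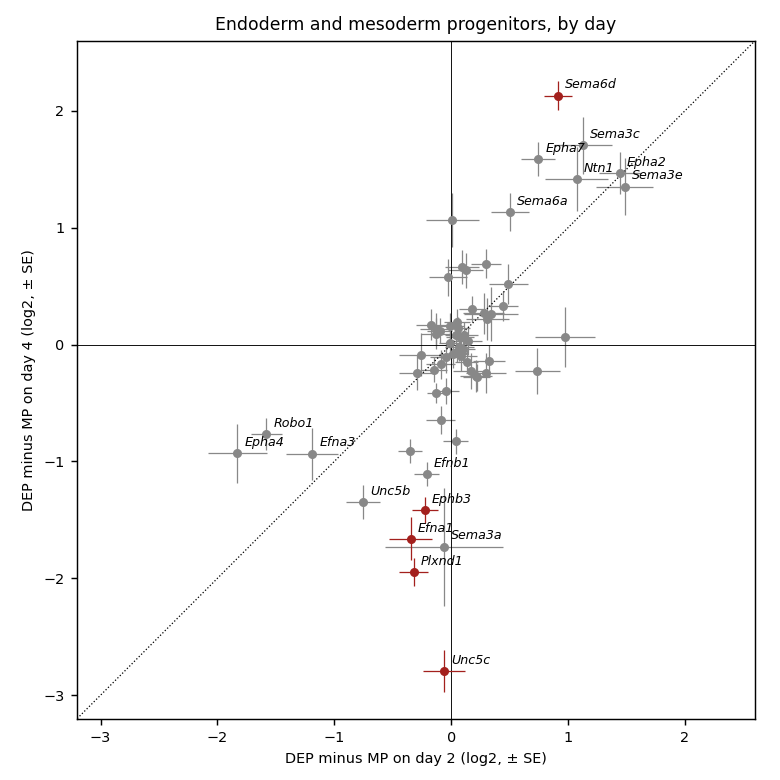
Each point is a guidance gene, with the log2 difference of DEP minus MP at day 2 on the horizontal and at day 4 on the vertical axis, and bars of 1 SE. The 4 arrays of each day are distinct, red points are the 5 genes whose difference changed with the day, and the dotted line marks equal differences. Unc5c, Plxnd1, Efna1 and Ephb3 lie near 0 across and well below 0 downward.

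The difference between the lineages also changed from early to late cells. At day 4, the difference of DE and MES was compared with that of DEP and MP as an interaction chosen after the values were seen, and 6 guidance genes changed upward and 8 downward, against 3.99% and 3.4% of all genes. Over the guidance genes the median change was 0.13, and over all genes 0.014. Robo1 turned from -0.76 for DEP against MP to 1.15 for DE against MES, a change of 1.92 ± 0.19 (SE, adjusted p = 6.25e-05). Sema3e turned from 1.35 to -1.16, a change of -2.51 ± 0.35 (SE, adjusted p = 0.000596). Sema6a turned from 1.13 to -1.66, a change of -2.79 ± 0.23 (SE, adjusted p = 2.13e-05), and Epha4 from -0.93 to 0.82, a change of 1.75 ± 0.36 (SE, adjusted p = 0.00679). The values of -0.76 for Robo1 and of -0.93 and 0.82 for Epha4 were themselves not called.

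Efnb2 had the largest such change, -3.41 ± 0.23 (SE, adjusted p = 6.53e-06), from 0.57 to -2.84, followed among the falls by Sema6a and Slit3 (-2.61 ± 0.33, adjusted p = 0.000297). Sema5a, Epha1, Unc5a and Sema3c changed downward by -1.57, -1.48, -1.46 and -1.35, and the change of Sema3c was not called without any 1 of 7 of the 8 arrays compared (adjusted p between 0.057 and 0.0865). Sema6d, Sema5b, Efna1 and Ephb3 changed upward by 1.99, 1.57, 1.38 and 1.23. Sema6d was thus higher in the endoderm at both stages, with the wider gap in the late cells. At day 4 the mean of 10 visceral endoderm markers was 8.75 and 8.76 on the DE arrays and 6.79 to 7.80 on all other arrays, and 4 of the 10 were higher in DE than in MES. The part of such cells in the levels of the guidance genes in DE was not tested.

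Co-receptors and cytoplasmic effectors of these pathways were read as a list of 32 genes, of which 31 were measured. Nrp2, a neuropilin partner of class 3 semaphorins, was lower in DEP than in MP by -2.88 ± 0.15 (SE, adjusted p = 4.1e-07). It was the 1 gene of the list called there, beside 0.999% of all genes called higher and 0.983% lower. Between DE and MES, 4 were higher and 3 lower, beside 4.26% and 3.61% of all genes. Higher were Dpysl3, a cytoplasmic mediator of semaphorin signals (4.14 ± 0.21, adjusted p = 7.99e-08), Srgap1, a GTPase activating protein that binds Robo1 (2.89 ± 0.14, adjusted p = 5.04e-08), Vav3, an exchange factor downstream of Eph receptors, and Flrt3, a ligand of Unc5 receptors. Lower were Nrp2 (-3.32 ± 0.22, adjusted p = 6.5e-07), Crmp1 and Tiam1. Nrp1, the other neuropilin gene, differed by -0.83 in DEP against MP and by 0.82 in DE against MES, and neither was called.

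From DEP to DE, 6 genes of the list rose and 1 fell, beside 2.2% and 2.47% of all genes. Nrp1 rose by 3.63 ± 0.18 (SE, adjusted p = 8.99e-08), from 6.62 and 6.35 in DEP of day 2 and 8.61 and 8.48 in DEP of day 4 to 10.73 and 11.56 in DE of day 2 and 11.17 and 11.12 in DE of day 4. Dpysl3 rose by 2.98 and Vav3 by 2.50, and Crmp1 fell by 1.81 on the log2 scale. These changes from DEP to DE include DE replicate 2 of day 2, and are not given without it. Nrp1 also rose from day 2 to day 4 in both DEP (2.06 ± 0.26, adjusted p = 0.00407) and MP (2.35 ± 0.26, adjusted p = 0.00023). Against ES, 5 genes of the list were called lower in DEP and 3 in MP, beside 3.3% and 3.46% of all genes. Those lower included Flrt2 (-3.70 ± 0.18, adjusted p = 8.22e-08 in DEP) and Mical2, both in DEP and in MP. In neither population was a gene called higher, because every rise stayed under the threshold of 1. At an unadjusted limma p under 0.05, 7 were higher and 10 lower in DEP, and 11 higher and 8 lower in MP. Some of the higher ones also had an adjusted p below 0.05. The shares of all genes at these looser rules are not given here, so no rise of the list can be read from these counts. The largest rises were Dpysl5 in DEP (0.84, adjusted p = 3.62e-05) and Nrp2 in MP (0.83, adjusted p = 0.00854).

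Beside all comparisons with ES stands the feeder signal of those arrays. Of the 19 fibroblast markers, 13 were lower in DEP than in ES and 11 lower in MP. Guidance genes lower in DEP than in ES were Sema3a, Epha4, Robo1, Sema4b and Robo4, and those lower in MP were Sema3e, Sema3c and Epha2. Their part from feeder RNA was not tested. With mESC replicate 2 left out, the number of guidance genes called in DEP against ES was 7 instead of 11, and with mESC replicate 1 left out the number in MP against ES was 16 instead of 9.

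Without the array standing apart in DE at day 2, 19 guidance genes were called in DE against DEP, among them the 17 called with it. The shares of all genes called with an array left out are not given here, for this or any other such count. Without the array apart, the rises from DEP to DE were 3.18 for Sema6d, 2.81 for Robo1, 1.82 for Efna5 and for Slit1, and 1.53 for Ntn1. They were 1.33 for Sema3f, 1.25 for Plxna4, 1.15 for Plxna2 and for Sema5b, and 1.13 for Ephb3. The falls were -2.43 for Sema3e, -2.02 for Slit3, -1.72 for Epha1 and -1.64 for Sema3c. In DE of day 4 against day 2, 8 were called without it and 5 with it, with 4 in common, and the changes of Plxna4, Sema5b and Sema7a were 1.37, 1.22 and -1.45 without it. In the comparison of MES with MP at day 4, 2 were called without T+CD24low D4 replicate 2 and 3 without either MES array, instead of 5, and Plxna2 and Plxna4 were called in each case. In MP of day 4 against day 2, 4 were called without T+CD24low D4 replicate 2 instead of 7. In DEP of day 4 against day 2, 1 was called without F+CD24low D4 replicate 2 instead of 2.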

How the data were processed

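Undifferentiated T GFP/+; Foxa2 tagRFP/+ mESCs and 7 sorted populations were hybridized to Affymetrix Mouse Gene ST 1.0 arrays, 2 per group. The log2 values of 35556 probe sets were made by the authors with robust multichip average over all 16 arrays (RMA, oligo 1.48.0). This sets every array to a common distribution, which hides any change of total RNA per cell and compresses differences of dim probe sets. The genome build of the probe sets is not given in the sources used here.

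Following the study's methods, the 32000 probe sets with the largest mean level were kept. Group means without covariates were modelled by limma 3.58.1 (R 4.3.3, with lmFit, contrasts.fit and eBayes). Where a comparison does not name a day, DEP, DE and MP entered as the average of days 2 and 4, and p-values were adjusted over the 32000 probe sets of each comparison by the Benjamini-Hochberg method. Their error is the spread of replicate arrays within groups, pooled, and precision is limited by how few arrays there are. Of the probe sets kept, 20427 had 1 gene symbol in the platform annotation, 1400 several and 10173 none. A gene was read from its single-symbol probe set of highest mean, which left 18716 genes, and 5 guidance genes had several such probe sets. All 63 symbols matched the RefSeq table of GRCm38.p6, from which the upstream sequences were taken.

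The guidance genes, the co-receptor list and the marker lists were chosen with earlier results of these data known. Guidance genes were named where called in at least 1 comparison. Those called in DEP against MP or DE against MES at day 4 without overlap of the arrays are given with their array values, up to 10 in each direction, and uncalled genes as family members or as partners of a called gene. The contrast of late with early differences was added after seeing the values.

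Same-numbered replicates did not deviate together, with correlations of -0.204 to 0.246 over 28 pairs of groups and 8 of them over 0.1, so no pairing was used. The fits were tested on simulated data. Alternatives were all probe sets or the 16000 of highest mean, the median over probe sets, trend and robust estimation, the adjusted p alone, single days, DE or MP as the mean of both days, a replicate block and leaving out each array.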

Additional observations from a re-analysis of the deposited data

Results flagged for a closer look

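For 5 guidance genes the difference between DEP and MP was not the same on both days, by the interaction of lineage and day in limma. The change from day 2 to day 4 was -2.73 on the log2 scale for Unc5c (adjusted p = 0.00027), -1.63 for Plxnd1 (adjusted p = 0.000593), -1.32 for Efna1 (adjusted p = 0.0214), -1.19 for Ephb3 (adjusted p = 0.0021) and 1.22 for Sema6d (adjusted p = 0.00332). Unc5c, Plxnd1, Efna1 and Ephb3 rose in MP over these days, and Sema6d rose in DEP.

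For 14 guidance genes the difference between the lineages at day 4 was not the same in late cells (DE and MES) as in early cells (DEP and MP), by an interaction chosen after the values were seen. The change on the log2 scale was -3.41 for Efnb2, -2.79 for Sema6a, -2.61 for Slit3 and -2.51 for Sema3e. It was -1.57 for Sema5a, -1.48 for Epha1, -1.46 for Unc5a and -1.35 for Sema3c. Among the upward changes it was 1.99 for Sema6d, 1.92 for Robo1, 1.75 for Epha4 and 1.57 for Sema5b, then 1.38 for Efna1 and 1.23 for Ephb3. The adjusted p was between 6.53e-06 (Efnb2) and 0.0252 (Sema3c). Early and late cells also differ in their CD24 gate, which cannot be told apart from the stage here. The cause was not tested.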

How the results depend on the processing

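With the adjusted p alone and no threshold on the fold change, 25 guidance genes instead of 13 were called in DEP against MP, 30 instead of 18 in DE against MES, 28 instead of 11 in DEP against ES, 31 instead of 9 in MP against ES, 32 instead of 17 in DE against DEP and 12 instead of 5 in MES against MP. For the change from early to late cells, a comparison chosen with its alternatives after the values were seen, it was 23 instead of 14. From day 2 to day 4 the counts became 14 instead of 5 in DE, 3 instead of 2 in DEP and 13 instead of 7 in MP. The share of all genes called by the adjusted p alone is not given here. Whether these larger counts exceed that share therefore cannot be read from them. With the day 2 arrays alone, 6 were called in DEP against MP. The shares of all genes for single days or with an array left out are not given here either. Leaving out 1 array at a time gave 11 to 13 calls in DEP against MP, 17 to 19 in DE against MES, 17 to 20 in DE against DEP, 7 to 12 in DEP against ES, 9 to 16 in MP against ES and 2 to 6 in MES against MP. It gave 4 to 8 for the days of DE, 1 to 3 for those of DEP, 4 to 7 for those of MP and 4 to 6 for the change with the day and 13 to 15 for that from early to late cells. Of 2442 alternatives of 106 single-gene results, 2350 kept the call and its direction, 91 kept the direction without the call, and 1 turned, namely Unc5c in MP against ES, at -0.11 with the day 2 arrays of MP alone. The cause was not tested. With a replicate block, the counts of all 11 comparisons were unchanged (13 in DEP against MP and 18 in DE against MES). With 2 arrays a group, differences near the threshold of 1 stay uncertain.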
